A study of Mus musculus with 24 samples.

Results

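The data compared here come from pools of Panc02 tumors of mice given PancVAX + Anti-CTLA-4 and of mice given PancVAX alone, with 2 RNA libraries of each pool, 4 of the 16 RNA libraries of the series. All 16 libraries, 2 for each of 8 treatments, entered the model of gene counts. The treatments without the vaccine were Isotype Control, Anti-CTLA-4, Anti-PD-1 and both antibodies together. Vaccine was also given with Anti-PD-1, either without Anti-CTLA-4 or with it. Libraries outside the main comparison served for ranges, ranks and further contrasts. T cells were picked by their transcripts. A CD8 T cell held at least 1 unique molecular identifier (UMI, a counted transcript) of *Cd3e*, at least 1 of *Cd8a* and *Cd8b1* together, and none of *Cd4*, and a CD4 T cell held at least 1 of *Cd3e* and of *Cd4* and none of *Cd8a* and *Cd8b1*. These gates gave 2544 CD8 T cells in the 4 libraries, out of 10259 in all 16, and 374 CD4 T cells out of 1317.

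Panc02 is a mouse pancreatic ductal adenocarcinoma line, implanted subcutaneously in the flanks of wild-type male C57BL/6 mice that were 6 to 7 weeks old. PancVAX is a vaccine of peptides carrying Panc02 neoantigens. Both pools received its peptides subcutaneously on days 12 and 19, at 50 ug of each peptide by the study's methods, which also state that the peptides were mixed with the adjuvant AddaVax and a STING agonist. The PancVAX + Anti-CTLA-4 pool also received 100 ug of Anti-CTLA-4 antibody on days 15 and 22, and in the study's regimen mice given the vaccine without checkpoint antibodies received isotype antibodies. Pools given Anti-PD-1 received 100 ug of that antibody, starting on day 12. Tumors were taken on day 38, and these days are those of the labels, while a figure legend of the study gives other days. Tumors of the same treatment were pooled before library preparation, so each treatment was 1 pool of mice. One library of each pool held cells of the dissociated whole tumor, and the other held cells enriched for immune cells by Percoll density separation, which was also the second sequencing batch. Whether both preparations of a pool held the same mice is not given, so the P values below measure the spread between libraries of pools and not between mice.

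CTLA-4 is a receptor that activated T cells and regulatory T cells carry. It binds CD80 and CD86 on antigen-presenting cells with higher affinity than CD28 does and so limits the co-stimulation that CD28 delivers. Antibodies to CTLA-4 remove this brake, and some also deplete regulatory T cells in tumors.

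The CD8 T cells numbered 583 and 595 in the whole tumor and Percoll libraries of PancVAX and 787 and 579 in those of PancVAX + Anti-CTLA-4, and the CD4 T cells 68, 73, 134 and 99. The CD8 sums held 2179397, 2541773, 3041406 and 2342633 UMIs, and the 16 libraries held 7.71e+07 to 1.76e+08 UMIs in all barcodes. Median depth was between 3089.5 and 3864 UMIs per cell in the 4 libraries. All 12 listed T cell markers were detected in both gates, at 6342.78 to 6999.83 CPM (UMIs of a gene scaled to the same library total) summed over the list in the CD8 gate. The whole tumor library of PancVAX + Anti-CTLA-4 stood apart from the other 3 in the transcripts of other cells. It had UMIs of other lineages in 61.8% of its CD8 T cells, against 44.8%, 44.9% and 34.9%, and summed myeloid markers of 3072.59 CPM in the CD8 gate, against 2001.01, 1455.68 and 1211.88 CPM. Among its CD4 T cells, the 8 listed keratinocyte markers, all 8 detected, summed to 844 CPM, above the range of 13.0 to 80.6 CPM of the other 15 libraries. UMIs of other lineages were in 69.4% of its CD4 T cells, against 42.6%, 46.6% and 34.3%. The summed myeloid markers in its CD4 gate were 7488 CPM, against 4058, 1116 and 1070 CPM. The part of these transcripts in the results below was not tested, and the calls in CD8 T cells without this library and without the cells that carry them are given beside the main count. Barcodes shared between gated cells of any 2 of the 4 libraries numbered 0 to 3.

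CD4 T cells made up a larger share of the T cells in the PancVAX + Anti-CTLA-4 libraries. They were 8.61% and 8.74% of cells with a *Cd3e* UMI after PancVAX and 11.4% and 11.7% after PancVAX + Anti-CTLA-4, in whole tumor and Percoll libraries. The exact binomial 95% intervals, which cover counting error only, were 6.75% to 10.8% and 6.92% to 10.9% for PancVAX and 9.66% to 13.4% and 9.61% to 14.1% with the antibody. The other 12 libraries ranged from 5.59% to 10.9%. That the 2 PancVAX + Anti-CTLA-4 libraries lay above them did not hold without upper limits on cells, at 10.8% and 11.1% against 11.3% in the whole tumor library of PancVAX + Anti-PD-1, nor with a looser gate, at 10.62% in whole tumor against 10.66%. CD8 T cells were 73.8% and 71.3% after PancVAX and 67.1% and 68.4% after PancVAX + Anti-CTLA-4, within the 63.4% to 76.7% of the other 12. There were 8.57 and 8.15 CD8 T cells per CD4 T cell after PancVAX and 5.87 and 5.85 after PancVAX + Anti-CTLA-4, the latter below the 6.21 to 13.5 of the other 12 libraries, but not without upper limits on cells, at 6.01 and 6.20 against 5.88 in the whole tumor library of PancVAX + Anti-PD-1. The groups did not overlap in any of these 3 measures, and the exact two-sided permutation test over the 4 libraries gave P = 0.333, the smallest value that 2 libraries a side allow. Without cells that carry transcripts of other lineages, the difference in CD4 share between the means was 1.89 in place of 2.89 percentage points, and it lay mostly in the Percoll libraries. The shares were then 9.20% against 9.72% in whole tumor and 8.74% against 12.0% in Percoll, and the whole tumor library of PancVAX + Anti-CTLA-4 lay within the range of the other 12 libraries, also in its 7.34 CD8 T cells per CD4 T cell.

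**Figure D1:**
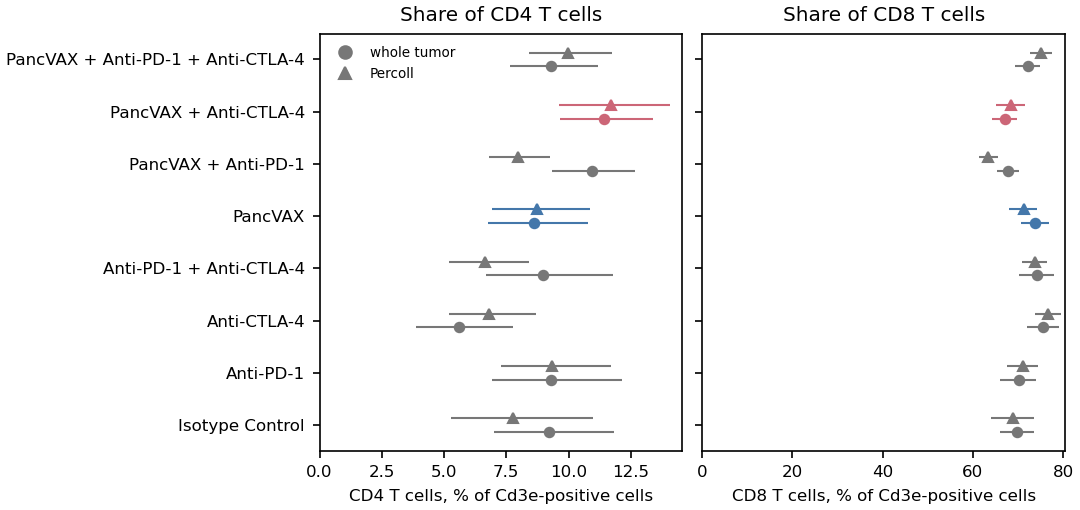
Share of CD4 T cells (left) and of CD8 T cells (right) among cells with a *Cd3e* UMI, in percent, for the 8 treatments. Each point is 1 library, circles are whole tumor and triangles Percoll, and bars are exact binomial 95% intervals. The PancVAX + Anti-CTLA-4 libraries lie furthest to the right in CD4 share, at 11.4% and 11.7%.

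*Foxp3*, the lineage factor of regulatory T cells, was found in 5 and 16 CD4 T cells after PancVAX and in 23 and 19 after PancVAX + Anti-CTLA-4. These were 7.35% and 21.9% of the CD4 T cells of PancVAX and 17.2% and 19.2% of those of PancVAX + Anti-CTLA-4, so the groups overlapped (exact two-sided permutation test, P = 1). After every cell was thinned to 1000 UMIs the shares were 4.41%, 11.0%, 8.96% and 10.1%. In macrophage-gated cells, which should lack *Foxp3*, 0.106%, 0%, 0.178% and 0.156% had a *Foxp3* UMI. *Ctla4* itself was found in 35.3% and 47.9% of CD4 T cells after PancVAX and in 43.3% and 46.5% after PancVAX + Anti-CTLA-4, with overlap of the groups. After thinning the groups did not overlap, at 17.6% and 20.5% against 26.1% and 30.3% (exact permutation test, P = 0.333). *Icos*, a co-stimulatory receptor of the CD28 family, was found in 34.3% and 37.0% of CD8 T cells after PancVAX and in 38.1% and 42.3% with the antibody. Among CD4 T cells the *Icos* shares were 57.4% and 57.5%, and 64.2% and 65.7%. The *Icos* groups did not overlap in either gate (exact permutation test, P = 0.333), but after thinning they overlapped among CD4 T cells. In macrophage-gated cells of these libraries the shares were 0.312% to 1.13% for *Icos* and 0% to 1.75% for *Ctla4*, with median depths of 2912 to 3747.5 UMIs per cell.

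In CD8 T cells, 22 of 10460 genes tested passed the test (edgeR quasi-likelihood test, Benjamini-Hochberg adjusted P below 0.05 and a log2 fold change beyond 0.5 in either direction), 15 higher and 7 lower after PancVAX + Anti-CTLA-4 than after PancVAX. That is 0.21% of the genes tested, 0.143% higher and 0.0669% lower, and 826 genes had an unadjusted P below 0.05. The number of calls fell when a library was left out, and the log2 fold changes ranged from -1.08 to -0.91 for *Ifit3*, 0.93 to 1.08 for *Hspa1a* and 1.08 to 1.13 for *Rgcc*, but from 0.67 to 1.08 for *Sertad1*, 0.48 to 0.90 for *Emb* and 0.47 to 0.74 for *Odc1*, the last 2 lowest without the Percoll library of PancVAX + Anti-CTLA-4. Without the whole tumor or without the Percoll library of PancVAX, 0 genes were called, with 692 and 545 at an unadjusted P below 0.05. Without the whole tumor library of PancVAX + Anti-CTLA-4 9 genes were called, and without its Percoll library 3. Without the term for preparation, 1 gene was called. Without cells that carry transcripts of other lineages 29 genes were called, and 10 of 21 followed genes were still called. DESeq2 called 20 genes, 13 of them among the 22. Of the 22, 21 were followed (*Ninj1* was not), each in the 15 to 17 alternatives in which it was tested, and no fold change turned its direction in these. Summed counts cannot tell a gene that is on in more cells from one with more RNA per cell.

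**Figure D2:**
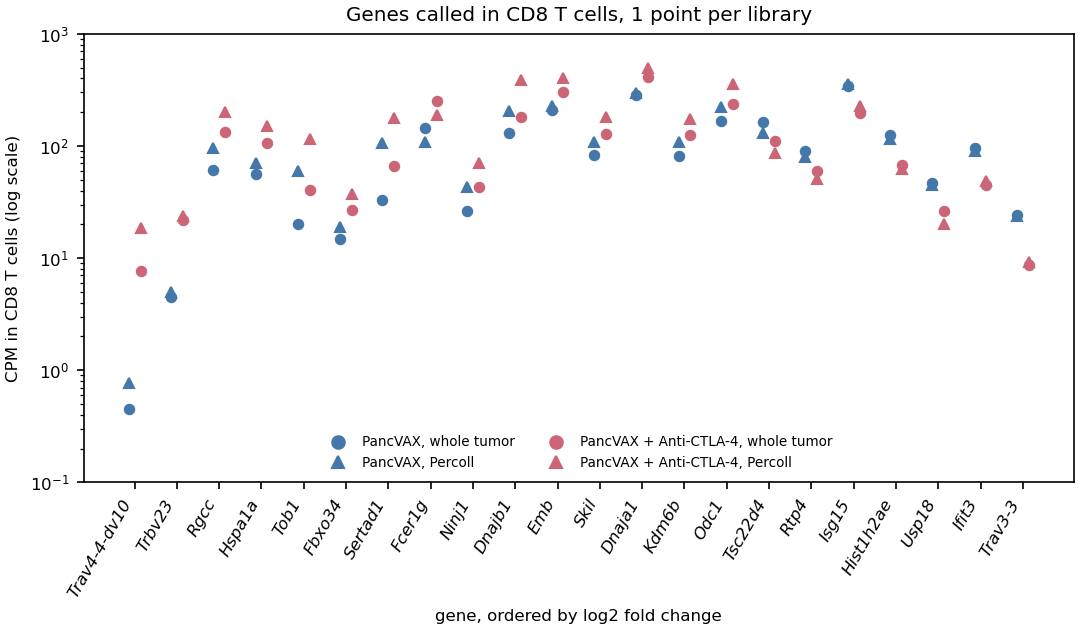
Level in CPM, on a log scale, of the 22 genes called in CD8 T cells, ordered from the largest rise to the largest fall. Each point is 1 library, blue for PancVAX and red for PancVAX + Anti-CTLA-4, circles for whole tumor and triangles for Percoll. Among the interferon-stimulated genes toward the right, such as *Ifit3*, both red points lie below both blue points.

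Interferon-stimulated genes were lower in CD8 T cells after PancVAX + Anti-CTLA-4 and made up 4 of the 7 genes that fell. *Ifit3*, an interferon-induced protein of the antiviral IFIT family, was at 96.5 CPM in the whole tumor and 90.4 CPM in the Percoll library of PancVAX, and at 44.8 and 48.7 CPM in those of PancVAX + Anti-CTLA-4. It fell by 1.00 ± 0.13 on the log2 scale (SE, 2 libraries a side, edgeR adjusted P = 0.0024). *Isg15*, a ubiquitin-like protein that is joined to other proteins in interferon-treated cells, was at 343 and 354 CPM after PancVAX and at 197 and 229 CPM with the antibody. It fell by 0.72 ± 0.12 on the log2 scale (edgeR adjusted P = 0.00718). *Usp18*, the protease that removes ISG15 and dampens signaling from the type I interferon receptor, was at 47.1 and 44.8 CPM after PancVAX and at 26.4 and 20.1 CPM with the antibody. Its log2 fold change was -0.99 ± 0.20 (edgeR adjusted P = 0.0356). *Rtp4*, an interferon-induced receptor transporter, went from 89.3 and 79.9 CPM to 59.1 and 50.8 CPM (log2 fold change -0.63 ± 0.13, edgeR adjusted P = 0.0356). In all 4 genes both libraries of one pool lay on the same side of both libraries of the other.

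Of 37 listed interferon-stimulated genes, 36 were tested in CD8 T cells, and 35 had a log2 fold change below 0, with a median of -0.51 beside -0.0036 over all genes tested. Their libraries did not overlap and were lower in 25 of the 36, where 16.7% of all genes tested did so. This and the other lists were chosen with earlier results of these data known, so such counts describe the data and test nothing. The fold changes of members that did not pass the test included -1.22 for *Slfn5*, -1.20 for *Oasl2*, -1.08 for *Rsad2* and -1.06 for *Ifit2*. The exception was *Irf1*, at 0.04. Within the whole tumor libraries 34 of the 36 were lower (median -0.53), and within the Percoll libraries 31 (median -0.48). Over the alternatives the median ranged from -0.64 to -0.39.

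The other treatments show where the 2 pools stood. Within each preparation, PancVAX had the highest level of *Ifit3*, *Isg15*, *Usp18* and *Rtp4* of all 8 treatments, and PancVAX + Anti-CTLA-4 ranked 3 or 4. *Ifit3* was at most 55.9 CPM in the 12 libraries of the other 6 treatments, so both PancVAX libraries lay above all of them and both PancVAX + Anti-CTLA-4 libraries lay within their range. Of the 36 interferon-stimulated genes, 25 were highest in PancVAX in both preparations, where 3.59% of all genes tested were. In macrophage-gated cells of the same 4 libraries, a gate added after the T cell values were seen, all 36 had a log2 fold change below 0, with a median of -0.52 beside -0.02 over all genes tested there. None of the 11831 genes tested in that gate was called by edgeR, and 565 had an unadjusted P below 0.05.

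Promoters of many interferon-stimulated genes carry the interferon-stimulated response element, a short sequence through which interferon signaling acts on transcription. Among the called interferon-stimulated genes, *Ifit3* and *Isg15* had a promoter entry in RefSeq (GRCm38.p6), and the stretch around each match to its core, GAAA, then NN for bases of any kind, then GAAA, searched on both strands in the 250 bases before the start, is printed with the matches in capitals. They are at chr19:34583343-34583446 on the plus strand and chr4:156200845-156200926 on the minus strand, upstream of the first exon.
Ifit3: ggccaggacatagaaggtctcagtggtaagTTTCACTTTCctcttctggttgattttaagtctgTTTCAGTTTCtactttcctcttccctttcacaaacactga
Isg15: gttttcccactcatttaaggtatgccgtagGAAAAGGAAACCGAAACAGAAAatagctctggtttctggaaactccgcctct
The matches began 156 and 122 bases before the start of *Ifit3*, where they read as the reverse complement, and 3 overlapping matches lay 78 to 66 bases before the start of *Isg15*. Of the 36 tested genes of the list, 27 had an entry and 15 of these, 55.6%, held the motif, against 3.46% of the 27025 genes with an entry. A match is a string of letters and not a measured binding site.

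Heat shock genes were higher in CD8 T cells after PancVAX + Anti-CTLA-4. *Hspa1a*, the stress-inducible HSP70 chaperone, was at 56.1 and 70.7 CPM after PancVAX and at 106 and 149 CPM with the antibody, a log2 fold change of 1.00 ± 0.14 (edgeR adjusted P = 0.00272). *Dnaja1*, an HSP40 partner of HSP70, rose from 281 and 295 CPM to 409 and 500 CPM (0.65 ± 0.09, edgeR adjusted P = 0.00272). *Dnajb1*, another HSP40 protein and a classical heat shock target, was at 130 and 205 CPM after PancVAX and at 179 and 383 CPM with the antibody (0.69 ± 0.12, edgeR adjusted P = 0.0138). The libraries of *Hspa1a* and *Dnaja1* did not overlap, and those of *Dnajb1* did, although the antibody library was higher within each preparation. All 14 listed genes of heat shock and dissociation stress had a log2 fold change above 0, with a median of 0.45, 3 were called, and 7 had libraries without overlap, where 15.1% of all genes tested did so in that direction. *Hsp90aa1*, the inducible HSP90, reached an adjusted P of 0.0356 in edgeR with a log2 fold change of 0.49, under the limit of 0.5. The immediate early genes of the list, *Fos* at 0.41 and *Jun* at 0.20, did not pass the test. *Hspa1a* and *Dnajb1* were highest of the 8 treatments in PancVAX + Anti-CTLA-4 in both preparations, as were 6 of the 14 listed genes, where 1.99% of all genes tested were.

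**Figure D3:**
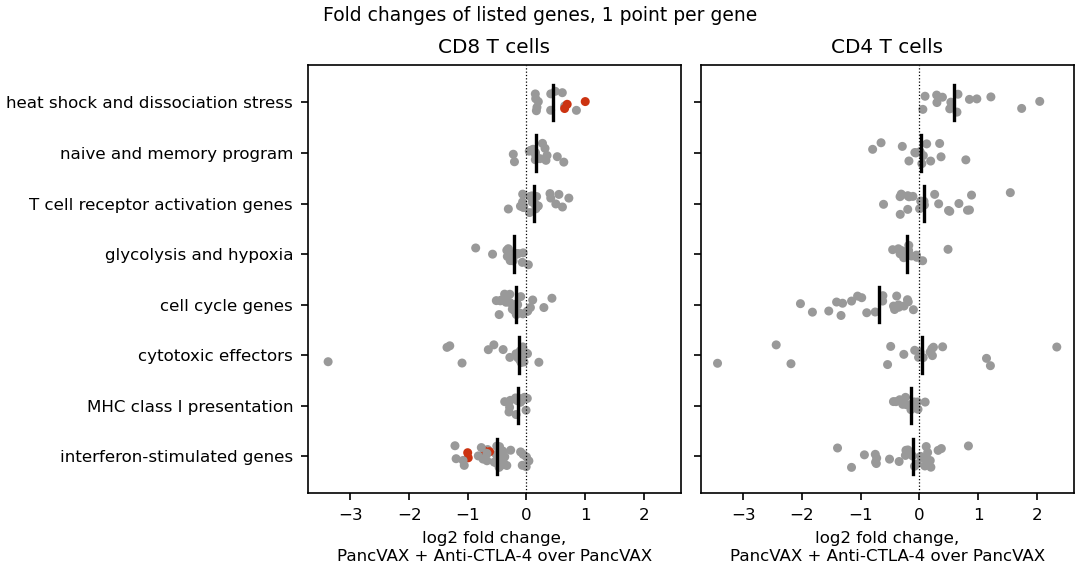
Log2 fold change of PancVAX + Anti-CTLA-4 over PancVAX in CD8 (left) and CD4 T cells (right) for the tested members of 8 gene lists. Each point is 1 gene, red where it was called, and the black bar is the median of the list. Interferon-stimulated genes lie left of 0 in CD8 T cells with a median of -0.51, heat shock genes lie right of 0 in both gates, and the cell cycle genes lie left of 0 in CD4 T cells.

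The other 10 protein-coding genes that rose included regulators of transcription and growth. *Rgcc*, a regulator of the cell cycle, was at 61.5 and 95.4 CPM after PancVAX and at 134 and 202 CPM with the antibody, and its log2 fold change was 1.10 ± 0.16 (edgeR adjusted P = 0.00272). *Tob1*, an antiproliferative protein that is high in resting T cells, rose by 0.95 ± 0.14 (edgeR adjusted P = 0.00272) from 20.2 and 59.9 CPM to 40.4 and 115 CPM. Its level differed more between preparations than between pools, and the groups overlapped. *Skil*, a repressor of TGF-beta signaling, rose by 0.67, *Kdm6b*, a demethylase of histone H3 lysine 27, by 0.64, and *Sertad1*, a transcriptional coregulator, by 0.82. *Odc1*, the rate-limiting enzyme of polyamine synthesis, rose by 0.60, *Fbxo34*, an F-box protein, by 0.91, *Emb*, the membrane glycoprotein embigin, by 0.69, and *Ninj1*, a membrane protein of cell rupture, by 0.69. Adjusted P values of these 7 genes lay between 0.0138 and 0.0499 in edgeR.

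*Fcer1g*, the signaling chain shared by Fc receptors and some NK receptors, rose from 143 and 109 CPM to 252 and 187 CPM (0.81 ± 0.13, edgeR adjusted P = 0.00522). PancVAX had its lowest level of the 8 treatments in both preparations, and the other 12 libraries ranged from 155 to 409 CPM. *Fcer1g* is also a marker of myeloid and NK cells. The summed myeloid markers in the CD8 gate were higher with the antibody in whole tumor and lower in Percoll. The summed NK cell markers went from 2467.19 and 2436.88 CPM to 1569.01 and 2062.2 CPM, while 4 of the 8 tested were above 0 and 4 below. Without cells that carry transcripts of other lineages the log2 fold change of *Fcer1g* was 1.05 (edgeR adjusted P = 0.393). The 2 remaining genes that fell were *Hist1h2ae*, a replication-dependent histone H2A gene, from 124 and 115 CPM to 67.4 and 62.5 CPM (-0.88 ± 0.15, edgeR adjusted P = 0.00863), and *Tsc22d4*, a leucine zipper protein, from 163 and 131 CPM to 112 and 86.0 CPM (-0.57 ± 0.11, edgeR adjusted P = 0.0282). Both were highest of the 8 treatments in PancVAX in both preparations.

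The last 3 called genes were segments of the T cell receptor, a readout of which clones a pool held. *Trav4-4-dv10* had 1 and 2 UMIs in CD8 T cells after PancVAX and 24 and 44 after PancVAX + Anti-CTLA-4 (edgeR adjusted P = 0.00748). The share of UMIs was 19.9-fold higher, with an exact 95% interval of 6.52 to 98.8 that takes each UMI as an independent draw. The UMIs lay in 1 and 2 cells after PancVAX and in 11 and 15 cells with the antibody. UMIs of the same cell or clone are not independent, so the interval understates the counting error. *Trbv23* rose from 4.49 and 5.02 CPM to 21.9 and 23.5 CPM (log2 fold change 2.24 ± 0.42, edgeR adjusted P = 0.0226). *Trav3-3* fell from 24.2 and 23.9 CPM to 8.58 and 9.23 CPM (-1.44 ± 0.24, edgeR adjusted P = 0.00933). Its value is uncertain, since near-identical copies of this segment in the locus could share its reads, which was not tested. Within each preparation PancVAX + Anti-CTLA-4 had the highest *Trav4-4-dv10* and *Trbv23* of the 8 treatments.

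T cell receptor sequencing of the 2 Percoll libraries gave the clones that used the 2 segments that rose. TRAV3-3 was found in 1 sequenced cell of PancVAX, although 22 CD8 T cells of that library had a *Trav3-3* UMI, so no clone can be named for the segment that fell. A clone here is a set of cells of a library with the same TRB V segment and the same nucleotides of the CDR3, the loop that contacts the peptide. In the PancVAX + Anti-CTLA-4 pool 13 of 389 CD8 T cells with both chains used TRAV4-4-DV10, and 12 of them were 1 clone, whereas 0 of 429 did after PancVAX, which allows a share of up to 0.699%. TRBV23 was used by 12 of 479 CD8 T cells in 2 clones of 7 and 5 cells with the antibody and by 3 of 500 cells in 1 clone without it. The CDR3 nucleotides of these clones, which used the segments that rose, and of the largest clone of each pool are as follows.
TRAV4-4-DV10 clone, TRBV29 and TRBJ2-7, 12 cells, beta: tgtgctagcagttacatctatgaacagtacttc
TRAV4-4-DV10 clone, alpha: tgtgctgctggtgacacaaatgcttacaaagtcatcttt
TRBV23 clone of 7 cells, TRBJ2-1, beta: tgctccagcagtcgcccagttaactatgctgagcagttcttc
TRBV23 clone of 5 cells, TRBJ2-5, beta: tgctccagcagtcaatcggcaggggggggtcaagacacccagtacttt
Largest clone with the antibody, TRBV16 and TRBJ2-5, 27 cells, beta: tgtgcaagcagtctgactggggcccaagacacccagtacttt
Its alpha, TRAV13-4-DV7: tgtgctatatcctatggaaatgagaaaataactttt
Largest clone of PancVAX, TRBV5 and TRBJ2-2, 12 cells, beta: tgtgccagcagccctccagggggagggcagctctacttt
Its alpha, TRAV7D-2: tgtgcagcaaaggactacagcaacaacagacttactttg
The whole tumor library has no receptor sequencing, but 8 of its 11 CD8 T cells with a *Trav4-4-dv10* UMI after PancVAX + Anti-CTLA-4 also had a *Trbv29* UMI, as did 11 of 15 in the Percoll library.

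The pool given the antibody held larger top clones than PancVAX, whose top clones were the smallest of all Percoll libraries. The largest clone with the antibody was 5.64% of the 479 CD8 T cells with a beta chain, against 2.40% of 500 after PancVAX. The 10 largest clones were 23.2% against 15.8%. In the other 6 Percoll libraries the largest clone was 3.67% to 10.5%, and the 10 largest were 20.1% to 41.6%. Clones of 2 or more cells held 58.9% of cells with the antibody (exact binomial 95% interval 54.3% to 63.3%) and 55.0% without it (50.5% to 59.4%). Both shares lay below the 65.4% to 75.5% of the other 6 Percoll libraries. The intervals take cells as independent draws, which cells of the same clone are not. In 234 cells drawn from each library, 158 and 173 clones would be found, and the other 6 Percoll libraries gave 107 to 166. With 1 receptor library a side these differences have no replicate check. The pools shared 1 CD8 clone, with 9 cells in the antibody pool and 1 cell in the other, 0.369% and 0.324% of their clones. Its TRBV2 beta sequence was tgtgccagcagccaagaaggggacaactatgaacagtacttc. Among the fewer CD4 T cells with a beta chain, 89 and 59, clones of 2 or more held 20.2% and 11.9% of cells with and without the antibody. The exact binomial 95% intervals, under the same assumption, were 12.4% to 30.1% and 4.91% to 22.9%. At these cell numbers the 2 shares are not comparable with each other or with the CD8 shares. In 25 cells drawn from each library, 24.1 and 24.2 CD4 clones would be found. No CD4 clone was over 3 cells, and the pools shared 1 CD4 clone of 1 cell in each.

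**Figure D4:**
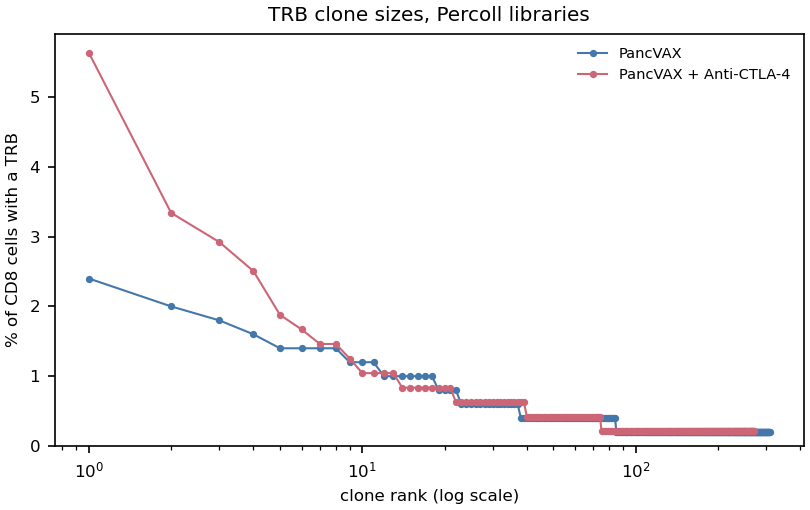
Size of each TRB clone as a percentage of CD8 T cells with a beta chain, by rank of the clone on a log scale, in the Percoll libraries of PancVAX (blue) and PancVAX + Anti-CTLA-4 (red). The curves part at the top ranks, where the largest clones are 2.40% and 5.64%, and run together further down.

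The genes of the CTLA-4 axis did not pass the test in CD8 T cells. *Ctla4* was at 115 and 165 CPM after PancVAX and at 138 and 221 CPM after PancVAX + Anti-CTLA-4, a log2 fold change of 0.35 ± 0.15 with overlap of the groups (edgeR adjusted P = 0.591). *Icos*, at 137 and 146 and at 166 and 190 CPM, and *Cd28*, at 209 and 248 and at 260 and 279 CPM, had libraries without overlap and log2 fold changes of 0.32 and 0.24. With 1 library left out the values ranged from 0.15 to 0.52 for *Ctla4*, 0.18 to 0.47 for *Icos* and 0.18 to 0.31 for *Cd28*. Of the 14 listed genes of the axis, 7 were above and 7 below 0, and 4 had libraries without overlap that were lower, *Tnfrsf9*, *Tnfrsf4*, *Cd80* and *Cd226*, with log2 fold changes of -0.29, -0.26, -0.44 and -0.12. Of all genes tested, 15.1% were higher and 16.7% lower without overlap. *Pdcd1*, the gene of PD-1, differed by 0.03 ± 0.22, and *Ifng* by 0.06 ± 0.20. *Ifng* differed more between preparations than between pools, at 125 and 276 CPM and at 121 and 307 CPM in whole tumor and Percoll libraries.

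*Gzmb*, the cytotoxic protease granzyme B, was at 1605 and 1918 CPM after PancVAX and at 1012 and 1401 CPM with the antibody. The libraries did not overlap, the log2 fold change was -0.56 ± 0.15, and it did not pass the test (edgeR adjusted P = 0.294). Over 17 alternatives the fold change lay between -0.68 and -0.43 and passed in 2, without a filter on low counts and with only the libraries compared (lowest edgeR adjusted P = 2.37e-05, highest 0.999). Of 21 cytotoxic effectors, 19 were below 0 and 0 were called, with 3 at an unadjusted P below 0.05 and a median of -0.12. The median was -0.30 without the whole tumor library of PancVAX, -0.31 without the Percoll library of PancVAX + Anti-CTLA-4 and -0.36 without upper limits on cells. The summed NK cell markers were also lower with the antibody in both preparations, at 2467 and 2437 CPM against 1569 and 2062 CPM. Of the 8 tested NK cell markers, however, 4 were above and 4 below 0, with a median of 0.05, and *Gzma* is in both lists. The part of these markers in the effector values was not tested. *Ccl5*, a chemokine of effector and memory CD8 T cells, had a log2 fold change of 0.14 ± 0.13. Of 15 tested genes of the naive and memory program, 13 were above 0 (median 0.16), with 0.53 for *Tcf7*, a factor of memory-like T cells, and 0.27 for *Il7r*, and none was called by edgeR, with 2 at an unadjusted P below 0.05. *Tcf7* was found in 14.9% and 15.8% of CD8 T cells after PancVAX and in 20.8% and 20.4% with the antibody, and the order held after thinning, at 5.83% and 4.54% against 7.62% and 6.22%. In macrophage-gated cells of these libraries the unthinned share was between 0.425% and 0.779%. Of 14 tested genes of glycolysis and hypoxia 13 were below 0, of 13 genes of MHC class I presentation 12 were, and of 24 cell cycle genes 18 were. None of these was called by edgeR, with 6, 4 and 6 at an unadjusted P below 0.05, and the cell cycle median of -0.19 was 0.01 without cells that carry transcripts of other lineages.

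In CD4 T cells none of 4851 genes was called by edgeR (0%), with 249 at an unadjusted P below 0.05, and DESeq2 called 1 gene. Without the whole tumor library of PancVAX 2 genes were called, and without the Percoll library of PancVAX + Anti-CTLA-4 5. Only 374 cells entered, and in simulated data of the same depth 16.5% of genes changed 2-fold and 73.5% of genes changed 4-fold were recovered, against 47.5% and 82% in the CD8 gate. The 3 rises and 3 falls with the smallest P were taken among genes with at least 20 CPM on average and the same direction in both preparations. Receptor, immunoglobulin and gate genes were left aside. The rises were *Cpm*, *Hspa1b* and *Cited2*. *Cpm*, a membrane carboxypeptidase, was at 38.4 and 34.5 CPM after PancVAX and at 97.4 and 156 CPM with the antibody (log2 fold change 1.80 ± 0.37, edgeR adjusted P = 0.11). *Hspa1b*, the twin gene of *Hspa1a*, was at 24.0 and 38.0 CPM and at 127 and 145 CPM (2.05 ± 0.48, edgeR adjusted P = 0.296). *Cited2*, a transcriptional coregulator, was at 33.6 and 89.8 CPM and at 125 and 158 CPM (1.26 ± 0.31, edgeR adjusted P = 0.296). The falls were *Tubb5*, a beta tubulin, at 543 and 891 CPM against 377 and 397 CPM, and the ribosomal protein genes *Rpl37* and *Rpl39*, with log2 fold changes of -0.90, -0.52 and -0.63. Over the alternatives *Tubb5* ranged from -1.26 to -0.27 and *Cited2* from 0.14 to 1.84.

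By lists, all 22 tested cell cycle genes were below 0 in CD4 T cells, with a median of -0.69 beside 0.0022 over all genes tested. In 13 of them the libraries did not overlap and were lower with the antibody, where 15.6% of all genes tested were. *Mki67*, a marker of dividing cells, was at 110 and 155 CPM after PancVAX and at 74.1 and 37.6 CPM with the antibody (-1.31 ± 0.55, edgeR adjusted P = 0.916). The difference was mostly in the Percoll libraries, where the median of the list was -1.19, against -0.20 in whole tumor. By cells, 10 and 12 CD4 T cells had a *Mki67* UMI after PancVAX and 19 and 8 with the antibody, that is 14.7% and 16.4% against 14.2% and 8.08%, and thinned shares overlapped. All 14 heat shock and dissociation stress genes were above 0, with a median of 0.59, and 9 had libraries without overlap, where 15.4% of all genes tested did in that direction. Interferon-stimulated genes had a median of -0.12 in CD4 T cells, with 16 of 27 below 0, and with 10 without overlap that were lower and 4 that were higher. That median was not stable, from -0.52 without upper limits on cells to -0.09 over the alternatives, and from -0.21 to -0.18 when any of the 4 libraries was left out. Of 18 tested genes of the regulatory T cell program 12 were above 0, and *Foxp3* itself was at 57.6 and 148 CPM after PancVAX and at 93.2 and 126 CPM with the antibody, with a log2 fold change of 0.04 ± 0.31. *Ctla4* was at 418 and 729 CPM against 445 and 835 CPM (0.14 ± 0.39), and *Icos*, *Pdcd1*, *Cd28*, *Ifng*, *Gzmb* and *Ccl5* had log2 fold changes between -0.49 and 0.47, none of them called.

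Whether the antibody did the same without the vaccine was tested as the difference between PancVAX + Anti-CTLA-4 over PancVAX and Anti-CTLA-4 over Isotype Control. In simulated data this test recovered 23% of genes changed 2-fold and 71% of those changed 4-fold in the CD8 gate. In the CD4 gate it recovered 0.5% and 32.5%. A gene that was not called is therefore not shown to have changed alike in both settings. In CD8 T cells 2 of 10460 genes were called (0.0191%), *Hspa1a* and the segment *Trbv13-1*. Leaving out either PancVAX + Anti-CTLA-4 library or either Anti-CTLA-4 library left 0 calls, with 486 to 622 genes at an unadjusted P below 0.05. Leaving out either Isotype Control library gave 1 call that was neither of the 2, while 1 of the 2 was still called without the Percoll library of PancVAX, as the only call, and without its whole tumor library, as 1 of 3. *Hspa1a* rose by 2.55 ± 0.18 on the log2 scale without the vaccine and by 1.00 with it, a difference of -1.55 ± 0.24 (edgeR adjusted P = 0.0146). *Trbv13-1* fell by 1.16 ± 0.18 without the vaccine and differed by 0.70 ± 0.18 with it, which did not pass the test (edgeR adjusted P = 0.201). *Rgcc*, *Ninj1* and *Emb* had log2 fold changes of -0.30, -0.43 and -0.33 without the vaccine against 1.10, 0.69 and 0.69 with it, and the differences did not pass the test (edgeR adjusted P = 0.0601, 0.119 and 0.119). *Ccr2* and *Hist1h1d* went the other way, with differences of -1.60 and -1.44 that did not pass the test either. Over 21 alternatives the difference passed in 5 for *Rgcc*, 2 for *Ninj1* and 3 for *Emb*, in each of them without a filter on low counts and with only the libraries compared, and for *Rgcc* also without the whole tumor library of Isotype Control (1.72, edgeR adjusted P = 0.0109). *Ifit3* and *Rtp4* were at -1.27 and -0.67 without the vaccine, and *Isg15* and *Usp18* at -0.24 and -0.16. Over the interferon-stimulated genes the median without the vaccine was -0.20. Anti-CTLA-4 over Isotype Control had 13 calls of its own in CD8 (0.124%) and 10 in CD4 T cells (0.206%).

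**Figure D5:**
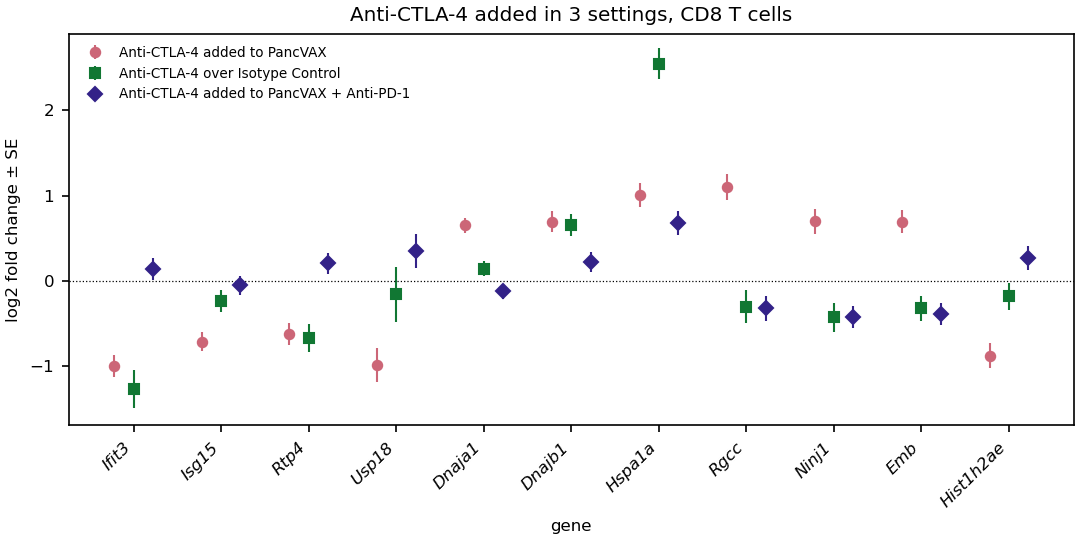
Log2 fold change with its SE of 11 genes of CD8 T cells when Anti-CTLA-4 was added to PancVAX (red circles), to no vaccine (green squares) and to PancVAX + Anti-PD-1 (blue diamonds). *Hspa1a* is above 0 in all 3, highest without the vaccine at 2.55, and *Rgcc*, *Ninj1* and *Emb* are at 1.10, 0.69 and 0.69 when it was added to PancVAX and below 0 in the other 2 settings, differences that did not pass the test against no vaccine and were not tested against PancVAX + Anti-PD-1.

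In pools that also received Anti-PD-1, PancVAX + Anti-PD-1 + Anti-CTLA-4 over PancVAX + Anti-PD-1, none of the 4 interferon-stimulated genes was lower beyond its error, with log2 fold changes of 0.14 for *Ifit3*, -0.05 for *Isg15*, 0.35 for *Usp18* and 0.20 for *Rtp4*, and the median of the list was 0.14. There were 13 CD8 calls (0.124%) and 0 CD4 calls by edgeR there, with 233 CD4 genes at an unadjusted P below 0.05. *Hspa1a* was at 0.68 ± 0.14 there (edgeR adjusted P = 0.0705), and *Dnaja1* and *Dnajb1* at -0.12 and 0.22. These contrasts share no library with the comparison of PancVAX + Anti-CTLA-4 with PancVAX. Adding Anti-PD-1 in place of Anti-CTLA-4 to PancVAX does share the PancVAX libraries. It had 153 calls among the 10460 genes tested in CD8 T cells by edgeR. Its values are set beside without a test of the difference between the antibodies. The interferon-stimulated median was -0.57 with Anti-PD-1 and -0.51 with Anti-CTLA-4. The cytotoxic effector medians were -0.56 and -0.12, and the heat shock medians 0.02 and 0.45. *Ifit3* was at -0.92, *Isg15* at -0.56, *Usp18* at -1.28 and *Rtp4* at -0.80 with Anti-PD-1, *Rgcc* at 0.77, *Tob1* at 1.36 and *Dnaja1* at 0.63, while *Hspa1a* was at -0.55 and *Trbv23* at 0.00.

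In CD4 T cells 5 of 4851 genes were called for a difference between the changes of the pools with and without the vaccine (0.103%). *Gadd45b*, a stress-induced growth regulator, was at 168 and 338 CPM after PancVAX and at 197 and 515 CPM with the antibody, 0.44 on the log2 scale against -1.17 without the vaccine. *Klrg1*, an inhibitory receptor of effector cells, was at 24.0 and 38.0 CPM and at 42.3 and 107 CPM, 1.21 against -1.99. *Ldha*, lactate dehydrogenase, at -0.18 against 0.86, *Klrd1*, the NK receptor chain CD94, at -0.27 against 2.15, and *Higd1a*, a hypoxia-induced mitochondrial protein, at -0.40 against 1.40, went the other way. Summed NK cell markers in the CD4 gate were 2201 and 576 CPM in the Anti-CTLA-4 libraries and 642 and 100.2 CPM in those of Isotype Control, in whole tumor and Percoll, and 313 and 59.3 CPM after PancVAX against 742 and 206 CPM after PancVAX + Anti-CTLA-4. Their part in the values of *Klrd1* and *Klrg1* was not tested. All 5 had an edgeR adjusted P of 0.0368 for the difference, and their changes with the vaccine did not pass the test. The Anti-CTLA-4 and Isotype Control pools held 29 to 58 CD4 T cells per library. The calls depended on single libraries. With 1 library left out, some fits called none of the 5, and some called genes that were not among them. The difference then ranged from 1.37 to 1.78 for *Gadd45b*, 2.30 to 3.91 for *Klrg1* and -1.21 to -0.93 for *Ldha*. It ranged from -2.79 to -1.94 for *Klrd1* and from -2.39 to -1.41 for *Higd1a*. Without cells that carry transcripts of other lineages 0 genes were called.

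Between the gates, 4 of 10019 genes differed in their change from the PancVAX to the PancVAX + Anti-CTLA-4 pool (0.0399%), the segments *Trav1* and *Trbv20*, *Tgfbi* and *Tnfsf11*. In simulated data this test recovered 4.5% of genes changed 2-fold and 38% of those changed 4-fold, so most differences of such size would be missed. *Tnfsf11*, the ligand RANKL, was at 255 and 173 CPM in CD4 T cells after PancVAX and at 125 and 134 CPM with the antibody, and in CD8 T cells at 6.28 and 10.4 CPM after PancVAX and at 20.03 and 16.4 CPM with the antibody. The difference of the log2 fold changes, CD4 minus CD8, was -1.79 ± 0.38 (edgeR adjusted P = 0.00774), and it turned to 0.35 when every cell was thinned to 1000 UMIs. It did not pass the test without the whole tumor library of PancVAX (-1.16) or of PancVAX + Anti-CTLA-4 (-1.49), without upper limits on cells (-1.08) or without other-lineage cells (-0.92), and it was -2.49 without the Percoll library of PancVAX and still called. *Tgfbi*, an extracellular matrix protein that myeloid cells also make, had 47 UMIs in CD4 T cells of the whole tumor library of PancVAX + Anti-CTLA-4, the library with the high myeloid and keratinocyte transcripts, and 1 or 2 UMIs in each of the other 3. Between the Percoll libraries its ratio was 0.782, with an exact 95% interval of 0.0566 to 10.8 that takes each UMI as an independent draw. The call for *Tgfbi* was lost in 6 of 8 alternatives. *Mki67* and *Ifit3* differed by -1.04 and -2.20 between the gates and did not pass the test (edgeR adjusted P = 0.581 and 0.700). The value of *Ifit3* gives no size for a fall in CD4 T cells. The lowest log2 fold change of the 27 interferon-stimulated genes tested in the CD4 gate was -1.40.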

How the data were processed

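Tumors of 8 treatments, pooled by treatment, were sequenced on a droplet 5' platform from whole tumor and Percoll preparations, with T cell receptor libraries for Percoll. Per the submitters' processing notes, reads were processed with Cell Ranger 4.0.0 and Seurat against mm10. The deposited files hold UMI counts per gene and barcode, not normalized, and the authors' T cell receptor contigs with their UMI counts. Cells with 200 to 3000 genes, 1000 to 10000 UMIs, under 10% mitochondrial UMIs and no hemoglobin UMI were kept, 39.6% of 144994 barcodes. No doublet caller was run, and the upper limits and the removal of cells with UMIs of other lineages stood in for one.

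Counts were summed per gate and library and fitted over all 16 libraries with edgeR 4.0.16 (R 4.3.3, TMM, robust quasi-likelihood, filterByExpr), with treatment and preparation as terms. DESeq2 1.42.0 was an alternative. The fit was tested on simulated data. Genes, lists and members were chosen with earlier results of these data known. Named genes were 8 fixed T cell genes, called genes by smallest P with at least 20 CPM on average and the same direction in both preparations, called list members and receptor segments. The list medians under the alternatives and the macrophage gate were added after seeing the data. Intervals cover counting error only, with UMIs or cells taken as independent draws. Replicate numbers mark the preparation, and Percoll minus whole tumor differences correlated between treatments by -0.07 to 0.52 in CD8 and -0.07 to 0.27 in CD4 sums. One gene of the interferon-stimulated list is not reported by name here.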

Additional observations from a re-analysis of the deposited data

Results flagged for a closer look

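The change between pools given and not given Anti-CTLA-4 differed with and without the vaccine, by a test of the difference itself, for 7 genes. Each treatment was 1 pool, so these are differences between pools. In CD8 T cells the log2 effect with PancVAX minus that without was -1.55 for *Hspa1a* and 1.87 for *Trbv13-1*. In CD4 T cells the same difference was 1.61 for *Gadd45b*, 3.20 for *Klrg1*, -1.05 for *Ldha*, -2.42 for *Klrd1* and -1.81 for *Higd1a*. Over the alternatives *Ldha* ranged from -1.21 to -0.35 and *Higd1a* from -2.39 to -0.84. The effect in PancVAX pools differed between CD4 and CD8 T cells, CD4 minus CD8, by 10.4 for *Trav1*, 2.10 for *Trbv20*, -1.79 for *Tnfsf11* and 3.67 for *Tgfbi*. *Trav1* had 0 and 0 UMIs in CD4 T cells after PancVAX and 14 and 26 after PancVAX + Anti-CTLA-4, at least 7.99-fold higher if the PancVAX libraries together are set at 3 counts, and its fitted value gives no size.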

How the results depend on the processing

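The 22 CD8 calls were 131 without a filter on low counts, 52 without upper limits on cells, 84 with only the libraries compared, 7 with a looser gate, 4 with cells thinned to 1000 UMIs, and 0 to 9 with 1 library left out. Of the 22 genes, 14 were among the calls without upper limits, 7 among those with the looser gate and only 2 among those after thinning. All 22 were among the calls without a filter and with only the libraries compared. Without the preparation term, which is the replicate block, 1 CD8 gene was called in place of 22, and the calls of a difference with and without the vaccine went from 2 to 0 in CD8 and from 5 to 0 in CD4 T cells. The 2 CD8 calls of that difference were 8 in DESeq2, 56 without a filter, 1 without receptor genes, 4 without other-lineage cells, 1 without upper limits, 34 with only the libraries compared and 0 to 3 with 1 library left out. Neither of the 2 CD8 genes was among the calls of that difference without other-lineage cells or without upper limits. The 5 CD4 calls were 18 without a filter, 1 at a mitochondrial limit of 5%, 8 with the stricter gate and 10 with only the libraries compared. They were 0 without other-lineage cells, 0 without upper limits and 0 with the looser gate. DESeq2 called 1 gene and thinning left 1, and none of the 5 was among these. With 1 library left out *Klrg1* ranged from 2.30 to 3.91, *Ldha* from -1.21 to -0.93 and *Higd1a* from -2.39 to -1.41. The 0 CD4 calls between the pools were 1 in DESeq2, 19 without a filter, 1 after thinning, 28 with only the libraries compared and 0 to 5 with 1 library left out. The 4 differences between gates were 2 without upper limits and 2 after thinning, and none of the 4 genes was among these. With 1 library left out the difference ranged from 1.95 to 4.24 for *Tgfbi* and from -2.49 to -1.16 for *Tnfsf11*. The difference in CD4 share was 1.89 points without other-lineage cells and 2.58 without upper limits, and that in CD8 per CD4 T cell was -1.76 without other-lineage cells.

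Directions turned only in values that had not passed the test, and in *Tnfsf11* between gates, at 0.35 after thinning. Without upper limits the log2 fold changes in CD8 T cells were -0.086 for *Ctla4*, 0.62 for *Foxp3*, -0.17 for *Pdcd1* and -0.35 for *Ifng*, and in CD4 T cells -0.11 for *Ctla4*, -0.086 for *Icos* and -0.25 for *Foxp3*. In CD4 T cells *Foxp3* was -0.47 without other-lineage cells, -0.11 at the 5% limit and -0.0044 with the stricter gate, and *Pdcd1* was 0.024 without a filter, 0.0080 without other-lineage cells, 0.058 at the 5% limit, 0.014 with the looser gate, 0.15 after thinning and 0.0010 with only the libraries compared. Thinning gave -0.033 for *Cd28* and -0.37 for *Ifng*. The CD8 cell cycle median was 0.011 without other-lineage cells. With 1 library left out, CD8 *Foxp3* ranged from -1.09 to 1.31, *Pdcd1* from -0.079 to 0.15 and *Ifng* from -0.082 to 0.19, and CD4 *Ctla4* from -0.15 to 0.38, *Icos* from -0.087 to 0.22, *Foxp3* from -0.42 to 0.86, *Pdcd1* from -0.46 to 0.40 and *Gzmb* from -0.96 to 0.21. A left-out library leaves 1 sample in an arm, which is assumed to vary like the other groups. The causes were not tested.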

Other observations

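One alpha chain CDR3, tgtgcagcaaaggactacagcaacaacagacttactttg, was paired with 23 TRB clones of CD8 T cells in all 8 Percoll libraries. It was in 27 cells of 6 clones after PancVAX, the largest clone of that pool among them, and in 5 cells of 3 clones after PancVAX + Anti-CTLA-4. In macrophage-gated cells 12 of the 14 heat shock and dissociation stress genes were above 0, with a median log2 fold change of 0.17 and 5 at an unadjusted P below 0.05.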
